A study of Homo sapiens with 4 samples.

Results

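A group of 10 genes that read out the activity of the kinase ERK were followed in RCC4, an established human clear cell renal cell carcinoma (ccRCC) line, after silencing of PML. They were chosen as the rows of the count file named DUSP4, DUSP5, DUSP6, SPRY2, SPRY4, SPRED1, SPRED2, ETV4, ETV5 or PHLDA1. All 10 were among the 59050 genes of the file, and all 10 passed the filter on low counts that kept 16516 genes. RCC4 cells carried a doxycycline-inducible shRNA against PML, the scaffold protein of PML nuclear bodies (shPML#1, called shPML), or a scrambled hairpin (shCtrl). Both received doxycycline at 100 ng/ml for 96 h in tetracycline-free serum, so the controls carried the inducer as well. Cells were selected with puromycin as infected populations rather than as clones, a single PML hairpin was sequenced, and 2 experiments with independent infections gave 2 shCtrl and 2 shPML libraries, numbered here as replicates 1 and 2.

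ERK is the last kinase of the cascade that runs from growth factor receptors through RAS, RAF and MEK. When active it drives transcription of its own brakes. DUSP phosphatases remove phosphate from ERK, Sprouty and Spred proteins act upstream on the receptor and RAS steps, and the ETS factors ETV4 and ETV5 carry the transcriptional output. Levels of these mRNAs are therefore widely used as a transcriptional readout of the pathway, and they do not measure ERK phosphorylation itself.

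Total counts ranged from 27781193 to 69870617 reads per library. All 7 markers of the renal line, PAX8, PAX2, CA9, NDUFA4L2, VIM, KRT8 and KRT18, were above 1 CPM (counts per 1e6 reads after TMM scaling) in every library. PML, the targeted gene, had 93.1 and 136 CPM in the shCtrl libraries of replicates 1 and 2, and 54.9 and 87.6 CPM in the shPML libraries. Its log2 fold change was -0.70 ± 0.11 (SE, n = 2 per group; edgeR adjusted p = 4.19e-07), with -0.76 in replicate 1 and -0.63 in replicate 2, the direction that the labels give. Without the experiment as a block it was -0.69 with an edgeR adjusted p of 0.32. Here and below, the SE comes from the edgeR test and is not the spread of the 2 replicates.

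One library stood apart. Of 9 markers of blood, endothelial, muscle and fibroblast cells, the summed level was 74.4 CPM in shPML replicate 2 and between 9.53 and 16.4 CPM in the others, in which COL1A1 made up most of it. The blood marker PTPRC had 12.6 CPM there, with 0, 0 and 0.0976 CPM elsewhere, and CD14 had 42.8 CPM there and at most 0.111 CPM elsewhere. The T cell marker CD3E and the fibroblast marker DCN had 0 counts in all 4 libraries, and the endothelial marker CDH5 had at most 2. PECAM1, also listed here as endothelial, had 4.11 CPM in shPML replicate 2, where CDH5 had 0 counts, and at most 0.0419 CPM elsewhere. The smooth muscle marker MYH11 had 2.76 CPM in that library and at most 0.0924 CPM elsewhere. In a list of 20 mononuclear phagocyte markers, chosen after these values were seen, 18 were over 1 CPM and highest in shPML replicate 2. Their summed level was 404 CPM there, against 2.40 and 2.81 CPM in the shCtrl libraries and 1.30 CPM in shPML replicate 1. LYZ had 85.4 CPM, CYBB 38.6 CPM and CD163 23.2 CPM in that library, while C1QB and CD68 had 0 counts. In this library 138 genes were over 2 CPM while under 0.2 CPM in the other libraries, and each other library held 0 such genes. Values of replicate 1, which do not include that library, are therefore given beside the fitted ones, and the part of this signal in the results was not tested. Where these reads came from, in a library labelled as the cultured line RCC4, was not tested. In bulk RNA, a change in the number of cells of a type and a change in RNA per cell cannot be told apart.

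**Figure D1:**
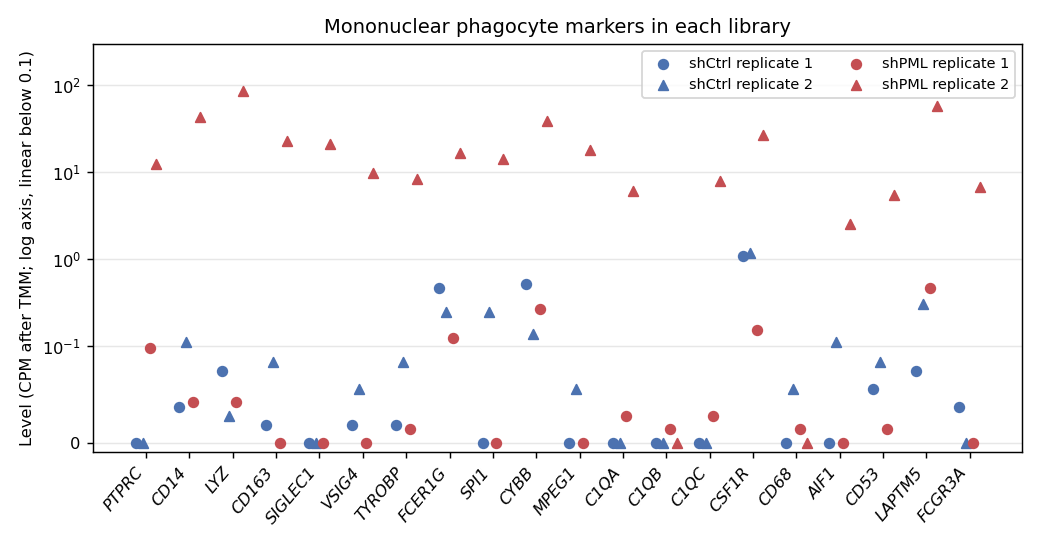
Level of 20 mononuclear phagocyte markers (x axis) in CPM after TMM (y axis, logarithmic above 0.1 and linear below) in the 4 libraries, blue for shCtrl and red for shPML, circles for replicate 1 and triangles for replicate 2. In 18 of the 20 the red triangle, shPML replicate 2, is the highest point, and the summed level there is 404 CPM against at most 2.81 CPM in any other library.

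RefSeq start-site windows (GRCh38.p14, 250 bases before to 50 bases after a start) were matched by symbol for 6 of the 10 genes, SPRED1, SPRED2, SPRY2, SPRY4, DUSP6 and PHLDA1, and not for DUSP4, DUSP5, ETV4 and ETV5. The windows of DUSP6 and SPRY2 are shown because these 2 were the genes with a window that were called higher in shPML. The DUSP6 window is chr12:89352452-89352751 on the minus strand, and the SPRY2 window at the outermost of its 3 starts is chr13:80341077-80341376, also on the minus strand. In the first, capitals mark the octamer bound by Capicua (CIC), a repressor of ETS and feedback genes that ERK inactivates. In the second, they mark TGACG, a partial site of the cyclic AMP response element, and then CCGGAA, the core of an ETS site.
DUSP6: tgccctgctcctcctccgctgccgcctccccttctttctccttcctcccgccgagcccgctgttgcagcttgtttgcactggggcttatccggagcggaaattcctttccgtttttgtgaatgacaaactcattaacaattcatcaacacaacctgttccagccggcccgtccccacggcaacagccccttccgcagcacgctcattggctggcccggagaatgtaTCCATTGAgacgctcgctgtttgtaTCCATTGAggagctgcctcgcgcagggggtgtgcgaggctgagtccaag
SPRY2: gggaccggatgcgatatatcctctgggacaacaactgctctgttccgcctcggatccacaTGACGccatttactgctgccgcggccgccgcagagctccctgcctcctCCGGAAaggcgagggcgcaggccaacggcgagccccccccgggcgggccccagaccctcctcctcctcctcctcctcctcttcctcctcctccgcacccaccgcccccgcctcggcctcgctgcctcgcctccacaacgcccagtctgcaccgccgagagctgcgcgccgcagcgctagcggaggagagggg

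The octamer was searched on both strands in the spellings TGAATGAA, TGAATGGA, TCAATGAA and TCAATGGA. DUSP6 held it at 2 places, both as TCCATTGA, beginning at positions -24 and 2 from the start site. Of all 35116 windows of this length, 3.77% held at least 1 copy. None of the windows of the other 5 genes held it. In the shown SPRY2 window TGACG began at -190 and CCGGAA at -142, motifs found in 24.6% and 17.2% of all windows. PHLDA1 had CCGGAA at -89 and SPRY4 had TGACG at -68. The start sites of these PHLDA1 and SPRY4 windows lie 2156 and 793 bases inside the 5′ end of the counted gene. SPRED2 had TGACG at 31 in the window at the 5′ end of the gene. The other SPRED2 window held TGANTCA, the AP-1 letters found in 7.71% of all windows, at -6 and 35. A match of letters is a description of the sequence and no evidence of binding.

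Calls came from an edgeR fit over all 16516 genes with the experiment as a block, at an adjusted p below 0.05 and a log2 fold change larger than 0.5 in either direction. By this rule 5 of the 10 feedback genes were higher in shPML (DUSP4, DUSP5, DUSP6, SPRY2 and ETV5) and 0 were lower, where 8.57% of all genes tested were higher and 10.5% were lower. The 10 genes were chosen with earlier results of these data known, so these shares are a description and not a test. All 10 fold changes were above 0, with a median of 0.61 on the log2 scale against 0.004 for all genes. Without the block 0 of the 10 were called, although 4 had an unadjusted p under 0.05, as did 2958 of all 16516 genes. Over all genes 0.0787% were then called higher and 0.333% lower. DESeq2 called 4 with the block, where it called 1102 of all genes higher and 1384 lower, and 2 without it. For DESeq2 without the block, and for the fits below that leave out shPML replicate 2, the share over all genes was not counted. With shPML replicate 2 left out and no block, 1 shPML library is left, so no call rests on those fits. For the 5 genes called, edgeR then gave log2 fold changes of 0.20 (DUSP4), 0.70 (DUSP5), 1.36 (DUSP6), 0.90 (SPRY2) and 0.89 (ETV5). DESeq2 values in this setting are not at hand for DUSP6, SPRY4 and ETV4.

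The phosphatases DUSP4, DUSP5 and DUSP6 were all called higher. DUSP6, a cytoplasmic phosphatase with a strong preference for ERK, had 0.406 and 0.611 CPM in the shCtrl libraries of replicates 1 and 2, and 1.30 and 9.31 CPM in the shPML libraries. These were 22 and 22 reads against 93 and 256 reads. Both shPML libraries lay above both shCtrl libraries, and shPML replicate 2, which held the phagocyte markers, lay far above the rest. The log2 fold change was 2.84 ± 0.43 (SE, n = 2 per group; edgeR adjusted p = 2.77e-07), and 3.37 without the block (edgeR adjusted p = 0.176). Within replicate 1 alone it was 3.19-fold, a log2 ratio of 1.67 with a 95% counting interval from 0.99 to 2.42. Within replicate 2 it was 15.2-fold, a log2 ratio of 3.93 (3.30 to 4.63). These intervals are exact and cover counting error only. An edgeR fit without shPML replicate 2, which has no block, gave 1.36 with an adjusted p of 0.555. The intervals of the replicates did not overlap, and the SE of DUSP6 was the largest of the 5 genes called.

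DUSP5, a nuclear phosphatase of ERK, had 18.9 and 13.2 CPM in the shCtrl libraries of replicates 1 and 2, and 26.0 and 23.5 CPM in the shPML libraries. Both shPML libraries were above both controls. Its log2 fold change was 0.64 ± 0.14 (SE; edgeR adjusted p = 0.000146), with 0.46 in replicate 1 and 0.83 in replicate 2, and without the block the adjusted p was 0.248. In unblocked fits that left a library out, the value was 0.70 without shPML replicate 2 (edgeR adjusted p = 0.452) and 0.38 without shCtrl replicate 2 (adjusted p = 0.794).

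DUSP4, a nuclear phosphatase that acts on ERK and other MAP kinases, had 4.79 and 7.56 CPM in the shCtrl libraries and 7.09 and 12.2 CPM in the shPML libraries. The groups overlapped, because shPML replicate 1 lay below shCtrl replicate 2, yet shPML was above shCtrl within each experiment. Replicate 1 gave a log2 ratio of 0.57 and replicate 2 one of 0.69, with a fitted log2 fold change of 0.63 ± 0.20 (SE; edgeR adjusted p = 0.0113). The call was lost without the block (edgeR adjusted p = 0.459) and in DESeq2 with the block (adjusted p = 0.079). In fits without the block, the value was 0.20 without shPML replicate 2 (edgeR adjusted p = 0.9) and 0.36 without shCtrl replicate 1. Leaving out shPML replicate 1 gave 0.98, and leaving out shCtrl replicate 2 gave 1.00.

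**Figure D2:**
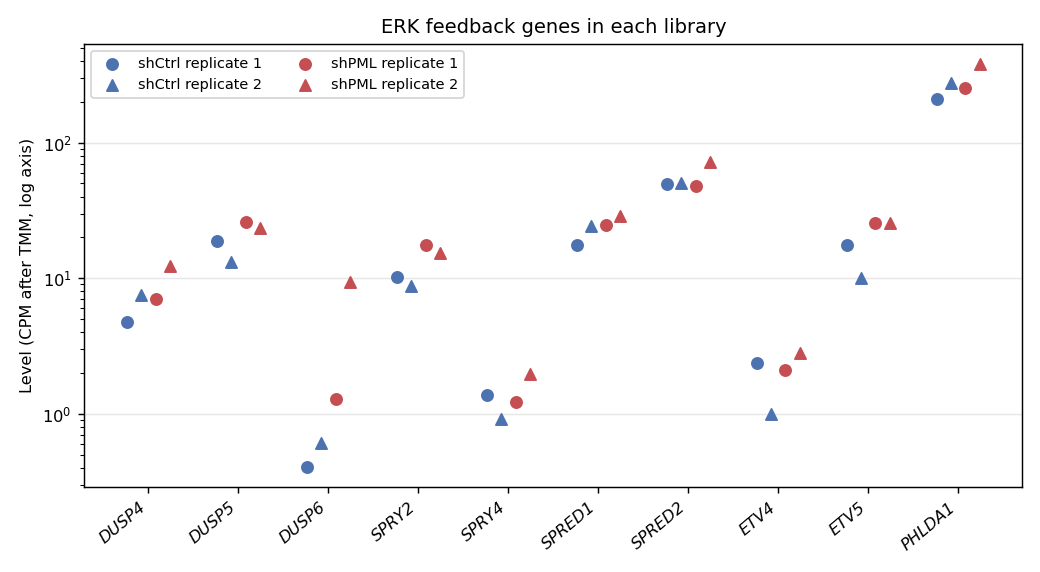
Level of the 10 ERK feedback genes (x axis) in CPM after TMM (logarithmic y axis) in each of the 4 libraries, blue for shCtrl and red for shPML, circles for replicate 1 and triangles for replicate 2. Both red points lie above both blue points for DUSP5, DUSP6, SPRY2, SPRED1 and ETV5, and the gap between the red points is widest for DUSP6, at 1.30 and 9.31 CPM.

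SPRY2 was the most even of the genes called. SPRY2, an inhibitor of receptor tyrosine kinase signalling toward RAS, had 10.2 and 8.75 CPM in the shCtrl libraries and 17.7 and 15.3 CPM in the shPML libraries. Both shPML libraries were above both controls, and here replicate 2 was the lower in each group. Replicates 1 and 2 both gave a log2 ratio of 0.80. The fitted log2 fold change was 0.80 ± 0.16 (SE; edgeR adjusted p = 3.58e-05), and 0.80 without the block, with an adjusted p of 0.134. Without shPML replicate 2 it was 0.90 (edgeR adjusted p = 0.311). DESeq2 called SPRY2 with and without the block.

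SPRED1 and SPRED2, membrane proteins that bring the RAS inhibitor neurofibromin to RAS, were not called. SPRED1 had 17.7 and 24.3 CPM in the shCtrl libraries and 24.7 and 28.7 CPM in the shPML libraries, so both shPML values were above both controls, by a narrow margin. Its edgeR adjusted p was 0.026, and its log2 fold change of 0.36 ± 0.13 (SE) was under the fold threshold. In fits without the block it was 0.24 without shPML replicate 2, 0.15 without shCtrl replicate 1 and 0.59 without shCtrl replicate 2. It was the only gene of the 10 whose log2 ratio was larger in replicate 1 (0.48) than in replicate 2 (0.24).

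SPRED2 had 49.3 and 50.2 CPM in the shCtrl libraries and 48.2 and 71.4 CPM in the shPML libraries. The groups overlapped, and shPML replicate 2 alone stood above the rest. Replicate 1 gave a log2 ratio of -0.03 and replicate 2 one of 0.51, with a fitted value of 0.23 ± 0.12 (SE; edgeR adjusted p = 0.147).

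SPRY4, a close relative of SPRY2, was the lowest of the 10 per length of transcript. It had 1.37 and 0.917 CPM in the shCtrl libraries and 1.21 and 1.96 CPM in the shPML libraries, the equivalent of 33 to 87 reads. The groups overlapped and the experiments differed in direction, with log2 ratios of -0.17 and 1.10. The fitted log2 fold change was 0.43 ± 0.47 (SE; edgeR adjusted p = 0.546). The counting intervals of the replicates, -0.64 to 0.30 and 0.45 to 1.77, did not overlap.

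Of the ETS factors, ETV5 was called and ETV4 was not. ETV5, a PEA3-family activator transcribed downstream of ERK, had 17.6 and 10.1 CPM in the shCtrl libraries and 25.7 and 25.8 CPM in the shPML libraries. The shPML libraries were nearly equal and both above both controls, which differed between experiments. Replicate 1 gave a log2 ratio of 0.54 (counting interval 0.43 to 0.66) and replicate 2 one of 1.35 (1.17 to 1.54). The fitted log2 fold change was 0.92 ± 0.15 (SE; edgeR adjusted p = 6.03e-07), and 0.89 without the block, with an adjusted p of 0.207. Without the block, it was 0.89 without shPML replicate 2 (edgeR adjusted p = 0.429) and 0.54 without shCtrl replicate 2 (adjusted p = 0.715).

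ETV4, of the same family, had 2.38 and 1.00 CPM in the shCtrl libraries and 2.11 and 2.80 CPM in the shPML libraries. The groups overlapped, and the low value of shCtrl replicate 2 rested on 36 reads. Its log2 ratio was below 0 in replicate 1 (-0.18) and above it in replicate 2 (1.49). The fitted log2 fold change of 0.60 ± 0.41 (SE) was close to those of DUSP4 and DUSP5 in size, with an edgeR adjusted p of 0.295.

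PHLDA1, a pleckstrin-homology-like protein induced by growth factors, was the most abundant of the 10. It had 210 and 276 CPM in the shCtrl libraries and 253 and 379 CPM in the shPML libraries. The groups overlapped across experiments, while within each experiment shPML was higher, with log2 ratios of 0.27 and 0.46. Its edgeR adjusted p was 0.0026, and its log2 fold change of 0.36 ± 0.10 (SE) was under the fold threshold. In fits without the block it was 0.06 without shPML replicate 2 and 0.21 without shCtrl replicate 1, against 0.63 without shPML replicate 1 and 0.58 without shCtrl replicate 2.

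**Figure D3:**
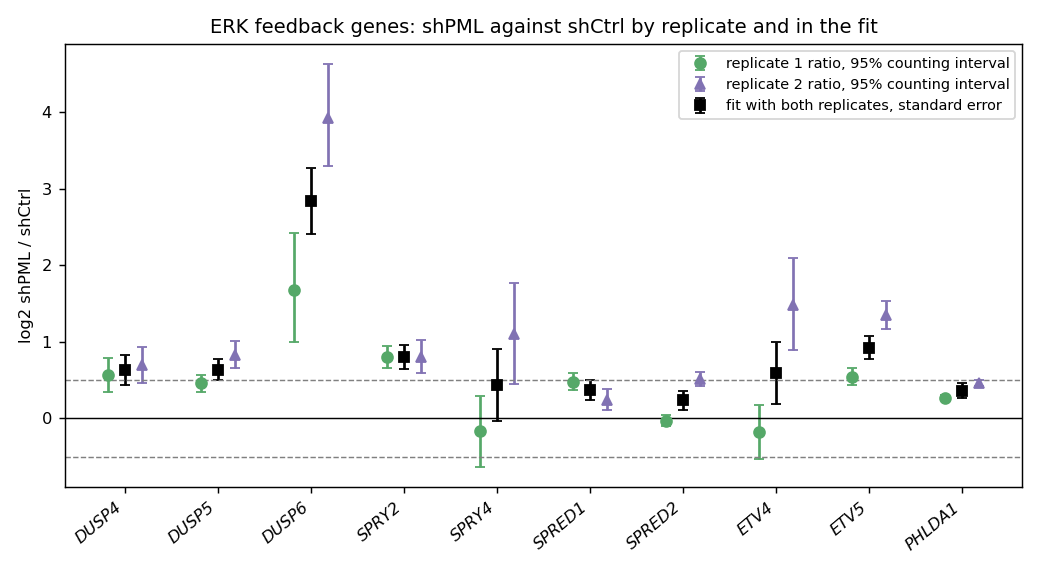
Log2 ratio of shPML to shCtrl (y axis) for each ERK feedback gene (x axis) within replicate 1 (green circles) and replicate 2 (purple triangles), each with a 95% counting interval, and the edgeR fold change over both replicates with its standard error (black squares). Dashed lines mark the fold threshold at 0.5 on either side of 0, and the widest gap between the replicates is that of DUSP6, 1.67 against 3.93.

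Across the 10 genes, 5 had both shPML libraries above both shCtrl libraries, where 23.1% of all genes tested did. The other 5 overlapped. In replicate 1 the counting interval of the ratio was above 0 for 7 genes, where it was for 34.1% of all genes, and held 0 for SPRY4, SPRED2 and ETV4. In replicate 2 it was above 0 for all 10, and for 32.4% of all genes. The ratio exceeded 0.5 on the log2 scale for 4 genes in replicate 1, DUSP4, DUSP6, SPRY2 and ETV5, and for 8 in replicate 2, where 14.7% and 20.3% of all genes exceeded it. Replicate 1 had a median log2 ratio of 0.47 and replicate 2 one of 0.82, while that of all genes was near 0 in both. The larger median and the 3 ratios that turned from below to above 0 lay in replicate 2, whose shPML library held the phagocyte markers. Of all 16516 genes tested, 12235 had the same sign in both replicates, as did 7 of the 10. Between the controls, shCtrl replicate 2 was below shCtrl replicate 1 for DUSP5, SPRY2, SPRY4, ETV4 and ETV5, and above it for the other 5. The part of either library in these ratios was not tested. Of the variance of log2 levels of the 10 genes, 60.7% lay between conditions, 24.3% between experiments and 15% in the remainder. For all genes these shares were 41.8%, 44.9% and 13.3%. Squares were summed over genes, so DUSP6, with the largest fold change of the 10, weighed heavily in the shares of the 10 genes.

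Between the experiments themselves, 2 of the 10 genes were called higher in replicate 2, DUSP6 by 1.94 ± 0.43 (SE, log2 scale; edgeR adjusted p = 0.000378) and DUSP4 by 0.72 ± 0.20 (SE; edgeR adjusted p = 0.00456). None was called lower. Over all genes 8.93% were higher and 4.53% lower. PHLDA1 was at 0.49 (edgeR adjusted p = 7.69e-05) and ETV5 at -0.38 (edgeR adjusted p = 0.0476), both within the fold threshold. In the shCtrl libraries alone, which held few phagocyte marker reads, DUSP6 was at 0.406 and 0.611 CPM and DUSP4 at 4.79 and 7.56 CPM.

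Levels were compared between genes as CPM per kilobase of annotated exon. PHLDA1 led with a mean of 34.6 over the 4 libraries (26.0 to 47.0), ahead of SPRED2 at 12.0 (10.5 to 15.6) and DUSP5 at 8.24 (5.33 to 10.5). PHLDA1 did not overlap any other gene, and the lowest value of SPRED2 lay just above the highest of DUSP5. DUSP5 overlapped ETV5 and SPRY2. ETV5, SPRY2 and SPRED1, with means of 4.60, 4.05 and 3.28, overlapped each other. DUSP4, DUSP6 and ETV4 followed at 1.09, 0.770 and 0.764, with DUSP6 spanning 0.108 to 2.47 and overlapping both. The highest value of DUSP6 also lay just above the lowest of SPRED1 (2.435) and ETV5 (2.344). SPRY4 was last at 0.274, and its range overlapped those of DUSP6 and ETV4. In GRCh38, the build of the counts, DUSP5 lies on the plus strand of chromosome 10 (110497907 to 110511533), ETV5 on the minus strand of chromosome 3 (186046314 to 186109089) and DUSP4 on the minus strand of chromosome 8 (29333064 to 29350684).

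Genes that overlap these in the annotation had few reads. The antisense gene AC024909.1 shares exon sequence with DUSP6 and had at most 1 read in any library. AC011611.3 and AC011611.4, which overlap PHLDA1, had at most 14 and 5 reads against at least 9937 for PHLDA1. ETV5-AS1 had 0 reads in all 4 libraries. The strand setting of the counting is not stated, so reads of antisense partners may not be separated.

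The tested genes whose pattern over the 4 libraries was most like that of DUSP6 were C5AR1, MYO1F and PLXNC1, with root mean square differences in centred log2 level of 0.138, 0.248 and 0.263. C5AR1 had 0.388 and 0.50 CPM in the shCtrl libraries and 0.963 and 7.17 CPM in the shPML libraries. MYO1F had 0.443 and 0.583 CPM against 1.44 and 14.2 CPM, and PLXNC1 had 0.148 and 0.361 CPM against 0.670 and 3.60 CPM. In all 3, as in DUSP6, shPML replicate 2 was by far the highest library and shPML replicate 1 the second. C5AR1 is the complement C5a receptor of myeloid cells, MYO1F a myosin of leukocytes and PLXNC1 a semaphorin receptor.

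To place the 10 genes in the pathway, 5 further lists with 63 genes were used, of which 62 were tested. In them 6 genes were called higher, 15 lower and 41 were not called, to be read against the 8.57% and 10.5% of all genes tested that were called higher and lower. The share of higher calls in these lists is near that background, and the share of lower calls is above it. These lists too were chosen with earlier results of these data known. Of 7 other MAP kinase phosphatases 0 were called higher and 3 lower. DUSP9, a cytoplasmic ERK phosphatase of the DUSP6 subfamily, had 12.2 and 16.1 CPM in the shCtrl libraries and 3.88 and 7.57 CPM in the shPML libraries, a log2 fold change of -1.38 ± 0.18 (SE; edgeR adjusted p = 1.07e-08) with -1.65 in replicate 1. DUSP8, which acts mainly on JNK and p38, was at -0.98, and -1.12 in replicate 1 (edgeR adjusted p = 1.35e-08). DUSP1, an immediate early phosphatase, was at -0.50, at the edge of the threshold, and -0.58 in replicate 1 (edgeR adjusted p = 3.36e-05). The list's median was -0.43, on the other side of 0 from the median of the 10 genes.

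Of 10 other inhibitors of receptors and RAS 9 were tested, of which 1 was called higher and 1 lower. SPRED3, the third Spred protein, had 1.15 and 0.889 CPM in the shCtrl libraries and 4.95 and 7.93 CPM in the shPML libraries. All shPML values were above all controls, and its ratio was 4.32-fold in replicate 1 and 8.92-fold in replicate 2, with a log2 fold change of 2.60 ± 0.33 (SE; edgeR adjusted p = 2.08e-09). CBL, a ubiquitin ligase that marks active receptors for degradation, was at -0.70, and -0.82 in replicate 1 (edgeR adjusted p = 4.07e-06).

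Of 11 other ETS factors and their repressors 2 were called higher and 3 lower. ETV1, the third factor of the PEA3 family with ETV4 and ETV5, had 3.18 and 1.78 CPM in the shCtrl libraries and 7.88 and 7.97 CPM in the shPML libraries. Its log2 fold change was 1.71 ± 0.26 (SE; edgeR adjusted p = 3.73e-07), with 1.31 in replicate 1 and 2.16 in replicate 2. ATXN1, a partner of CIC, was at 0.59, and 0.40 in replicate 1 (edgeR adjusted p = 9.01e-05). ETS2, ELK3 and ELK1, ETS factors that ERK can phosphorylate, were at -1.35, -1.13 and -0.55 on the log2 scale, and at -1.25, -1.21 and -0.56 in replicate 1. CIC, whose octamer is shown above and which was picked out after its value was seen, had a log2 fold change of 0.06 (edgeR adjusted p = 0.74), with -0.24 in replicate 1 and 0.36 in replicate 2.

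Of 23 genes of the cascade from RAS to ERK 1 was called higher and 6 lower. RRAS and NRAS, GTPases of the RAS family, were at -1.40 and -0.67 (edgeR adjusted p = 8.53e-15 and 3.71e-07), and the adaptor SHC1 was at 0.68 (edgeR adjusted p = 1.04e-07). Replicate 1 gave -1.49 for RRAS, -0.55 for NRAS and 0.65 for SHC1.

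Of 12 other genes that respond to ERK 2 were called higher and 2 lower. CCND1, the G1 cyclin D1, had 134 and 174 CPM in the shCtrl libraries and 221 and 367 CPM in the shPML libraries, a log2 fold change of 0.90 ± 0.10 (SE; edgeR adjusted p = 1.07e-10) with 0.72 in replicate 1. EGR1, an immediate early transcription factor, was at 1.07 (edgeR adjusted p = 3.55e-09), with 0.69 in replicate 1 and 1.46 in replicate 2. The receptors EPHA4 and EPHA2 were at -1.19 and -0.70 (edgeR adjusted p = 8.03e-09 and 1.23e-07), and at -1.34 and -0.70 in replicate 1. Without the block in edgeR, 19 of the 62 had an unadjusted p under 0.05, as did 2958 of all 16516 genes. That count over all genes was not made for fits without shPML replicate 2. The higher and lower calls of the 5 lists together, 6 and 15, became 0 and 1 without the block in edgeR. Without shPML replicate 2 and without the block they were 0 and 0 in edgeR, with 17 genes at an unadjusted p under 0.05, and 1 and 6 in DESeq2.

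**Figure D4:**
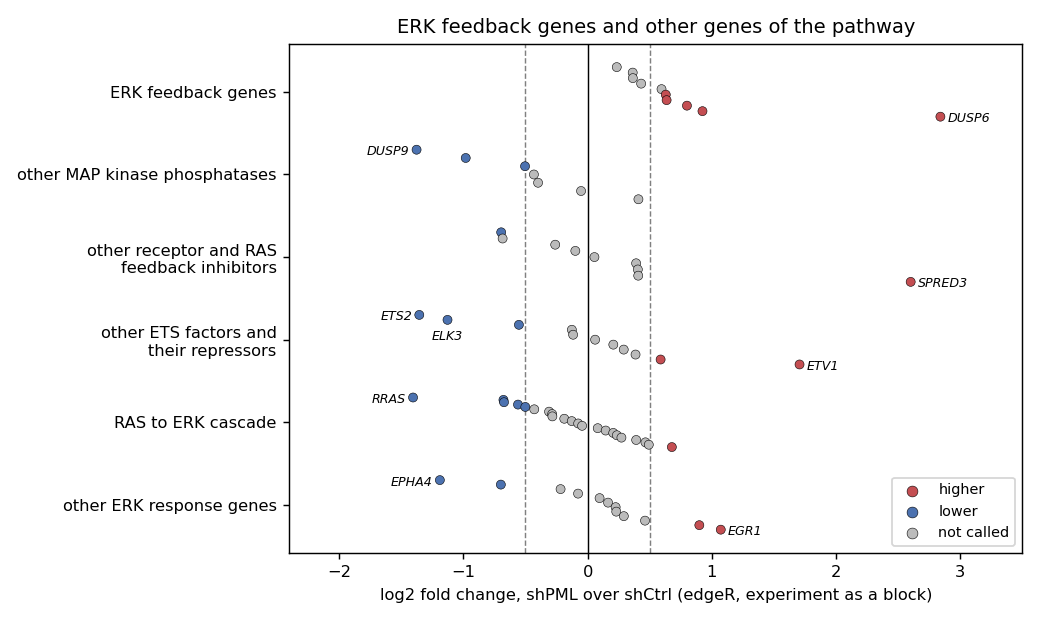
Log2 fold change of shPML over shCtrl (x axis) from edgeR with the experiment as a block, for the ERK feedback genes and the genes of 5 other pathway lists (rows), 1 point per tested gene except 1 gene not reported here, red for genes called higher, blue for lower and grey for those not called. All 10 points of the first row lie above 0, with 5 called, while the MAP kinase phosphatases below them have 3 called lower, and dashed lines mark the threshold at 0.5 on either side of 0.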

How the data were processed

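The authors deposited raw counts, whole numbers of reads per gene without normalization, for 4 libraries of RCC4 cells. Per the labels and the study's methods, stranded mRNA libraries were read from one end, trimmed with Trimmomatic 0.39, mapped to GRCh38 by STAR, and featureCounts 1.6.4 assigned them to genes. The Gencode release and the strand setting are not given in the sources used here. The columns without a number were taken as replicate 1. The record states that the labels of 2 samples were swapped and later corrected, and the corrected labels were used.

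The tests were run with edgeR 4.0.16 under R 4.3.3 (filterByExpr, TMM, quasi-likelihood test, Benjamini-Hochberg adjustment over 16516 genes) and DESeq2 1.42.0. The experiment was a block, since conditions were compared within each experiment. Deviations from the group means of same-numbered libraries had a correlation of 0.546 across genes, and the common dispersion was 0.0137 with the block and 0.0813 without it. With the block 1 residual degree of freedom is left, and 57.6 prior degrees of freedom from all genes carry the spread. The SE printed is the size of the log2 fold change divided by the square root of the F statistic of the quasi-likelihood test. It therefore rests mostly on the spread of all genes. Ratios within a replicate have exact binomial counting intervals. Fits were tested on simulated data.

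The 10 genes and all lists were chosen with earlier results of these data known. Of each list, up to 3 called genes per direction with the smallest adjusted p that moved alike in both replicates are named, except 1 gene that is not reported here, as are genes overlapping the 10 and the 3 most like the one with the smallest adjusted p.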

Additional observations from a re-analysis of the deposited data

Results flagged for a closer look

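Of the 10 ERK feedback genes, 3 had shPML below shCtrl in one experiment and above it in the other. Both experiments gave the same sign for 7 of the 10, and for 12235 of all 16516 genes tested, a similar share. The change of sign is therefore not particular to these genes. The log2 ratio of shPML to shCtrl was -0.17 in replicate 1 and 1.10 in replicate 2 for SPRY4, -0.032 and 0.51 for SPRED2, and -0.18 and 1.49 for ETV4. With 1 library per condition in an experiment, the difference between the experiments was not tested. In replicate 1 the counting intervals of all 3 ratios held 0. The shPML library of replicate 2 is the one with mononuclear phagocyte markers at a summed 404 CPM. The shCtrl libraries of replicates 1 and 2 had 1.37 and 0.917 CPM of SPRY4 and 2.38 and 1.00 CPM of ETV4. For SPRED2 they had 49.3 and 50.2 CPM. The part of the phagocyte markers or of the control levels in these ratios was not tested.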

How the results depend on the processing

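The 5 feedback genes called higher with the experiment as a block became 0 without the replicate block, 2 in DESeq2 without the replicate block and 1 (DUSP6) beyond a log2 fold change of 1. In the same 3 settings the 6 other pathway genes called higher became 0, 4 and 3, and the 15 called lower became 1, 8 and 6. Without a fold threshold 14 of them were higher and 20 lower. Leaving out 1 library, in fits without the block, gave 0 to 1 feedback genes, 0 to 1 other genes higher and 0 to 1 lower. The one feedback gene, called without shPML replicate 1, was DUSP6. DESeq2 without the block and without shPML replicate 2, a setting chosen after seeing the data, leaves 1 shPML library. Its values for DUSP6, SPRY4 and ETV4 are not at hand, so no count of feedback genes is given. SPRED2 ranged from -0.044 to 0.51 with 1 library left out, and turned to -0.044 without shPML replicate 2 in edgeR and to -0.036 in DESeq2. PML was not called without the replicate block (-0.69), in DESeq2 without the replicate block (-0.67), beyond a log2 fold change of 1 (-0.70) or in edgeR with 1 library left out (-1.06 to -0.40), while DESeq2 without the block and without shPML replicate 2 called it (-1.05). Of the differences between experiments, DESeq2 with the block and a threshold of 1 each gave 1 feedback gene higher in replicate 2, and no threshold gave 1 lower. RLE and upper quartile normalization, both count filters, library sizes over all counts, robust dispersions and the newer edgeR fit, the last 3 also chosen after seeing the data, left 5 feedback genes called. Over all genes tested, edgeR called 8.57% higher and 10.5% lower in shPML with the block, and 0.0787% and 0.333% without it. For the other settings of this section, including the changed fold thresholds and the fits with a library left out, this share was not counted. Whether the counts of the listed genes changed more or less than those of all genes was therefore not tested in those settings. The cause of these changes was not tested.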
